A study of Homo sapiens with 3 samples.

Results

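Osmolyte supply genes encode the enzyme and carriers that fill a cell with small organic solutes when its medium becomes concentrated. The set described here was AKR1B1, SLC5A3, SLC6A12, SLC6A6 and NFAT5, together with the overlapping or paralogous partners MRPS6, SLC6A13, AKR1B10 and AKR1B15. These 9 genes, of 61533 in the tables, were taken by gene name after a reading of the same libraries had shown some of them higher with oxamate. The values of hypoxia with oxamate against hypoxia are therefore a description of a set chosen on them and support nothing further. Those of hypoxia with oxamate against normoxia share the oxamate library and are limited in the same way. Those of hypoxia against normoxia share the hypoxia library with the ratio the set was chosen on, so they are not independent of the choice. Of the 9 genes, 8 had at least 10 fragments over the 3 libraries, and AKR1B15 did not.

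Messenger RNA was sequenced from Hep3B, an established human liver cancer cell line of wild-type genotype label, with 1 library per condition. The conditions were 1% oxygen with oxamate sodium (hypoxia with oxamate), 1% oxygen alone (hypoxia) and 20% oxygen (normoxia). Oxamate, an inhibitor of lactate dehydrogenase, was given for 48 hours according to the series' design. Whether cells in hypoxia and normoxia without it were cultured as long is not stated, so culture time and condition cannot be told apart. Neither its dose nor the osmolality of the media is stated in the labels, and no group with sodium salt alone or with oxamate at 20% oxygen is among the samples analysed here. All cells grew in the same serum-supplemented medium.

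The deposited value of each gene was in FPKM, fragments scaled by exon length and library size, from which whole fragment numbers were read back. The libraries held 24826365 fragments in hypoxia with oxamate, 26309340 in hypoxia and 27412147 in normoxia. With 1 library per condition there is no replicate error and no test. Each fold is a ratio of fragments after scaling by the trimmed mean of M values (TMM), with an exact 95% binomial (Clopper-Pearson) interval that covers counting error only. A gene was called higher or lower at 2-fold or more where the higher library held at least 50 fragments. The 3 comparisons share libraries, so their values are set side by side and not combined.

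The liver label held: all 10 liver markers had fragments in every library. Their summed level was 2751 FPKM in hypoxia with oxamate, 4093 FPKM in hypoxia and 7677 FPKM in normoxia, and 5 of the 10 were called lower with oxamate than in hypoxia, against 5.07% of all genes measured. Blood markers summed to 34.9, 18.8 and 25.2 FPKM in the same order, most of it LYZ in every library, with PTPRC at 8, 0 and 0 fragments. Endothelial markers stayed at or under 2.56 FPKM and fibroblast markers at or under 2.75 FPKM, with ACTA2 at 0 in every library. Of 3 kidney tubule markers, UMOD and AQP2 were at 0 in every library. The part of these marker differences in the results was not tested. In bulk RNA, fewer cells of a type and less RNA per cell cannot be told apart.

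As background, cells in concentrated medium first gain salt and then replace it with solutes that do not disturb proteins. The transcription factor NFAT5, also called TonEBP, drives much of this replacement, which is best known from the kidney medulla. Aldose reductase (AKR1B1) makes sorbitol from glucose, SLC5A3 (SMIT) carries myo-inositol, SLC6A12 (BGT1) carries betaine and SLC6A6 (TauT) carries taurine. In the liver, betaine, taurine and myo-inositol are known as solutes that hepatocytes take up or release as their volume changes.

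Among the 9 genes, 5 were called higher in hypoxia with oxamate than in hypoxia and 0 lower. Over all 13739 genes with at least 50 fragments in either library, 5.92% were called higher and 5.07% lower. The 5 genes were AKR1B1, AKR1B10, SLC6A12, SLC5A3 and MRPS6. NFAT5, SLC6A6 and SLC6A13 stayed within 2-fold, and AKR1B15 had too few fragments. AKR1B1 and AKR1B10, with 10 and 16 fragments in hypoxia, passed the minimum of 50 only through the oxamate library. They could therefore only be called higher or not be measured, so the split of calls is partly fixed by the rule.

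**Figure D1:**
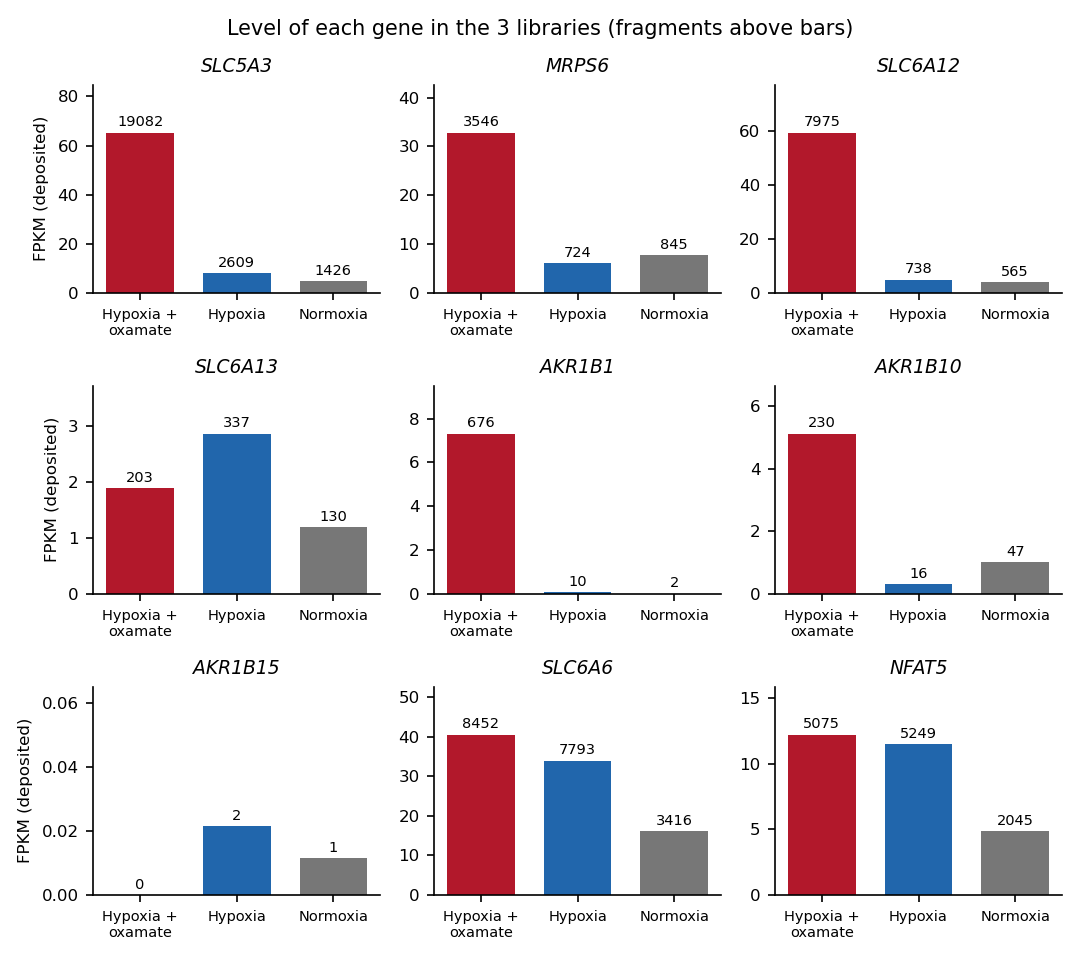
Deposited FPKM of each of the 9 genes, in hypoxia with oxamate, hypoxia and normoxia, 1 panel per gene with its own axis from 0; each bar is 1 library, with its fragments above it, so there are no error bars. SLC5A3, SLC6A12, MRPS6, AKR1B1 and AKR1B10 stand highest in hypoxia with oxamate, while NFAT5 and SLC6A6 stand close together in both 1% oxygen libraries.

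SLC5A3, the sodium/myo-inositol cotransporter, had the highest FPKM of the 9 genes in the oxamate library. It had 19082 fragments in hypoxia with oxamate, 2609 in hypoxia and 1426 in normoxia, or 65.2, 8.11 and 4.79 FPKM. Only 439 genes had a higher FPKM in the oxamate library, against 4895 in the hypoxia library and 7297 in the normoxia library. The level with oxamate was 8.09-fold that of hypoxia (7.77 to 8.43) and 13.8-fold that of normoxia (13.1 to 14.6). Hypoxia alone was 1.71-fold normoxia (1.60 to 1.83), which did not reach 2-fold.

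SLC5A3 lies on chromosome 21 at 34073578 to 34106260 on the plus strand (hg38), inside the span of MRPS6, which runs from 34073224 to 34143034 on the same strand. MRPS6 encodes a protein of the small subunit of the mitochondrial ribosome and is shown only as the partner of SLC5A3. It had 3546 fragments in hypoxia with oxamate, 724 in hypoxia and 845 in normoxia, or 32.8, 6.09 and 7.69 FPKM. That is 5.42-fold higher with oxamate than in hypoxia (5.00 to 5.88) and 4.34-fold higher than in normoxia (4.02 to 4.68). Hypoxia was 1.25-fold lower than normoxia (1.13 to 1.38).

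MRPS6 had the highest ratio among the genes of its own ribosome, a list formed after its value had been seen. Of 75 other mitochondrial ribosomal protein genes measured in hypoxia with oxamate and hypoxia, 0 were called higher and 1 lower. Their log2 ratios ran from -1.27 in MRPL24 to 0.43 in MRPL33, with a median of -0.24, while that of MRPS6 was 2.44. The same 75 genes had a median of -0.97 with oxamate over normoxia, where MRPS6 was at 2.12.

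In GENCODE 29, SLC5A3 and MRPS6 share 273 exon bases, which are 2.36% of the exon bases of SLC5A3 and 6.35% of those of MRPS6. Of the stretches of 100 bases in MRPS6 transcripts, 1.78% also occur in SLC5A3. How fragments from the shared exons were assigned is not stated in the labels. With the fragments of both genes summed, the log2 ratio of oxamate over hypoxia was 2.91, against 3.02 for SLC5A3 alone.

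**Figure D2:**
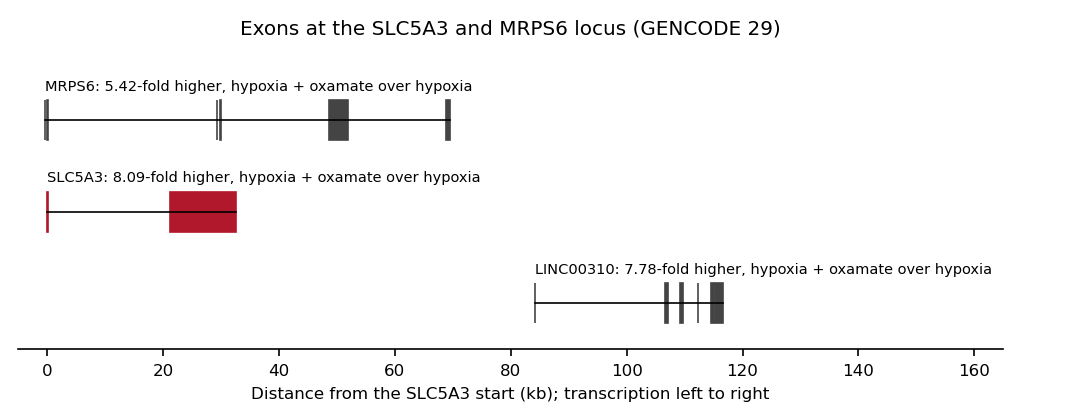
Exons (boxes) of MRPS6, SLC5A3 and LINC00310 from GENCODE 29, to scale in kilobases from the SLC5A3 start, with each gene's fold in hypoxia with oxamate over hypoxia. The first exon of SLC5A3 overlaps an MRPS6 exon at the start, and short MRPS6 exons near 29.3 and 29.9 kb lie within the long second exon of SLC5A3. The other MRPS6 exons, among them the one farthest upstream, overlap no SLC5A3 exon.

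Both genes have the same RefSeq start, so that the 250 bases before it are one sequence (chr21:34073328-34073577, plus strand, RefSeq on GRCh38.p14). It is shown because 2 genes of the set that were higher with oxamate have this RefSeq start. The deposited span of MRPS6 begins farther upstream, at 34073224, before this window. GGGCGG, the core of a GC box, is in capitals on either strand.
SLC5A3 and MRPS6: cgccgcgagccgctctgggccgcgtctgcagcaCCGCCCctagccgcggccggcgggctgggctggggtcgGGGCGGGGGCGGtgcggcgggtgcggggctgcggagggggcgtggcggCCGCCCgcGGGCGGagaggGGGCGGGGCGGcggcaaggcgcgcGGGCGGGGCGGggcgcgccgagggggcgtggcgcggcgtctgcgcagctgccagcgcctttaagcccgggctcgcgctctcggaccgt
Its GC content was 84.8%, against a median of 58.0% over 35116 promoter windows of the same length. GGGCGG occurred 9 times, counting overlapping matches, between -217 and -83 from the start. At least 1 match occurred in 42.6% of all windows and at least 9 in 0.285%. TGGAAA, the core that NFAT5 binds, which 18.0% of windows hold, had no match on either strand of these 250 bases. Sequence farther out was not searched.

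LINC00310, a long noncoding RNA gene 51.5 kb downstream of SLC5A3 on the same strand, was named after its values were seen. It had 190 fragments in hypoxia with oxamate, 27 in hypoxia and 3 in normoxia. The ratio of oxamate over hypoxia was 7.78 (5.18 to 12.1).

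SLC6A12, the betaine/GABA transporter, was close behind SLC5A3 in the oxamate library. It had 7975 fragments in hypoxia with oxamate, 738 in hypoxia and 565 in normoxia, or 59.3, 4.99 and 4.13 FPKM. The level with oxamate was 11.95-fold that of hypoxia (11.1 to 12.9) and 14.6-fold that of normoxia (13.4 to 15.9). Hypoxia was 1.22-fold higher than normoxia (1.09 to 1.36). Both libraries without oxamate were thus near each other, and the oxamate library stood far above them.

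SLC6A13 (GAT2), a GABA and taurine carrier and the nearest protein-coding gene to SLC6A12, did not follow it. The genes lie 6.05 kb apart on the minus strand of chromosome 12, SLC6A12 at 190077 to 214570 and SLC6A13 at 220621 to 262873. SLC6A13 had 203 fragments in hypoxia with oxamate, 337 in hypoxia and 130 in normoxia, or 1.89, 2.86 and 1.19 FPKM. With oxamate it was below hypoxia by 1.501-fold (1.26 to 1.79). Hypoxia was 2.42-fold higher than normoxia (1.97 to 2.99), so its highest library was the hypoxia one. The pair shared 0 stretches of 100 bases in their transcripts, and SLC6A13 shares no exon bases with another gene in GENCODE 29.

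On the opposite strand, SLC6A12-AS1 overlaps 1.12% of the exon bases of SLC6A12. It had 40 fragments in hypoxia with oxamate, 5 in hypoxia and 0 in normoxia, a ratio of 8.85 for oxamate over hypoxia (3.49 to 28.7). The labels do not say whether the libraries keep strand, so fragments of this antisense gene and of SLC6A12 cannot be told apart where they overlap. Its 40 fragments compare with 7975 for SLC6A12.

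AKR1B1, aldose reductase, was close to the limit of detection without oxamate. It had 676 fragments in hypoxia with oxamate, 10 in hypoxia and 2 in normoxia, or 7.32, 0.0984 and 0.0213 FPKM. The ratio of oxamate over hypoxia was 74.8 (40.4 to 157), and 6 of the 13739 genes measured had a higher one. Against normoxia the ratio was 349, with an interval of 96.4 to 2891 that reflects the 2 fragments there. Because of the low counts, the size of the first ratio depended on what was added to each value: with 0.1 FPKM added the log2 ratio was 5.22 and with 1 FPKM 2.92, against 6.16 with the 0.5 fragments used here.

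Hypoxia over normoxia for AKR1B1 was 4.67 (0.996 to 43.9), from 10 against 2 fragments, and was not called. AKR1B1 lies on chromosome 7 at 134442356 to 134459284 on the minus strand, and none of its exon bases are shared with another gene in GENCODE 29. Neither AKR1B10 nor the AKR1B1 pseudogenes shared a stretch of 100 bases with its transcripts.

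The 250 bases before one of the RefSeq starts of AKR1B1 (chr7:134459101-134459350, minus strand, RefSeq on GRCh38.p14) are shown for comparison with the sequence above, since this gene had the highest ratio of the set. Capitals mark GGGCGG running into GGAAA, which share a pair of bases, and CCAAT, the CCAAT box.
AKR1B1: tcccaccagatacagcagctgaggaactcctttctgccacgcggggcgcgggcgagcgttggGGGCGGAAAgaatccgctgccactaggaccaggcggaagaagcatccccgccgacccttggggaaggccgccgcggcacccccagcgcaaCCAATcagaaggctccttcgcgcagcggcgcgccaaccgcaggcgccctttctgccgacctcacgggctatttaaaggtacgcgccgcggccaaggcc
GGGCGG lay at -188, GGAAA at -184 and CCAAT at -98. The deposited span of AKR1B1 begins at 134459284 on the minus strand, inside this window. Bases after that point, CCAAT among them, lie within the gene as deposited. Before the other RefSeq start at hand, whose window overlaps this one, GGAAA lay at -45 and -113 and GGGCGG at -49. CCAAT had no match there. GGAAA occurred in 55.65% and CCAAT in 32.01% of all windows. Searched on both strands, TGGAAA had no match in the windows at hand for AKR1B1, SLC5A3, MRPS6 and SLC6A13. The longer TonE consensus begins with TGGAAA, so it could not match there either. Sequence beyond these windows was not searched, so sites farther from the starts are not covered. No window was at hand for AKR1B10, AKR1B15, SLC6A12, SLC6A6 and NFAT5.

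AKR1B10, a paralogue that reduces retinal and other aldehydes and is known for high levels in some liver cancers, lies on chromosome 7 at 134527567 to 134541412 on the plus strand. It had 230 fragments in hypoxia with oxamate, 16 in hypoxia and 47 in normoxia, or 5.13, 0.325 and 1.03 FPKM. The oxamate library was 15.9-fold above hypoxia (9.59 to 28.3) and 5.06-fold above normoxia (3.68 to 7.08). Hypoxia was 3.14-fold lower than normoxia (1.75 to 5.94), from fewer than 50 fragments in each, and was not called. That interval lies above 1, but it covers counting error only. With low counts and 1 library per condition, no order of hypoxia and normoxia is read from it.

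AKR1B15, the next gene of the cluster at 134549110 to 134579875, had 0 fragments in hypoxia with oxamate, 2 in hypoxia and 1 in normoxia. At these depths a count of 0 allows up to 3 fragments, so no fold is given. AKR1B10 and AKR1B15 shared 17 of 1887 stretches of 100 bases in AKR1B10 transcripts, or 0.901%.

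SLC6A6, the taurine transporter, had the highest FPKM of the 9 genes in both libraries without oxamate. It had 8452 fragments in hypoxia with oxamate, 7793 in hypoxia and 3416 in normoxia, or 40.5, 33.95 and 16.1 FPKM. The oxamate library was 1.20-fold above hypoxia (1.16 to 1.24) and 2.56-fold above normoxia (2.46 to 2.66). Hypoxia was 2.13-fold above normoxia (2.05 to 2.22). The taurine carrier was thus high in both 1% oxygen libraries, with the difference between them well within 2-fold. It lies on chromosome 3 at 14402576 to 14489349, and 2.90% of its exon bases are shared with GRIP2, which had 3 fragments or fewer in each library.

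NFAT5, the transcription factor of the response, had 5075 fragments in hypoxia with oxamate, 5249 in hypoxia and 2045 in normoxia, or 12.2, 11.5 and 4.85 FPKM. The scaled level with oxamate was 1.07-fold that of hypoxia (1.03 to 1.11) and 2.57-fold that of normoxia (2.44 to 2.70). Hypoxia was 2.40-fold above normoxia (2.28 to 2.53). NFAT5 is known to be regulated largely at the level of its protein and its entry into the nucleus, neither of which was measured here. It lies on chromosome 16 at 69565094 to 69704666, and the genes that share 10.1% of its exon bases had 0 fragments.

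**Figure D3:**
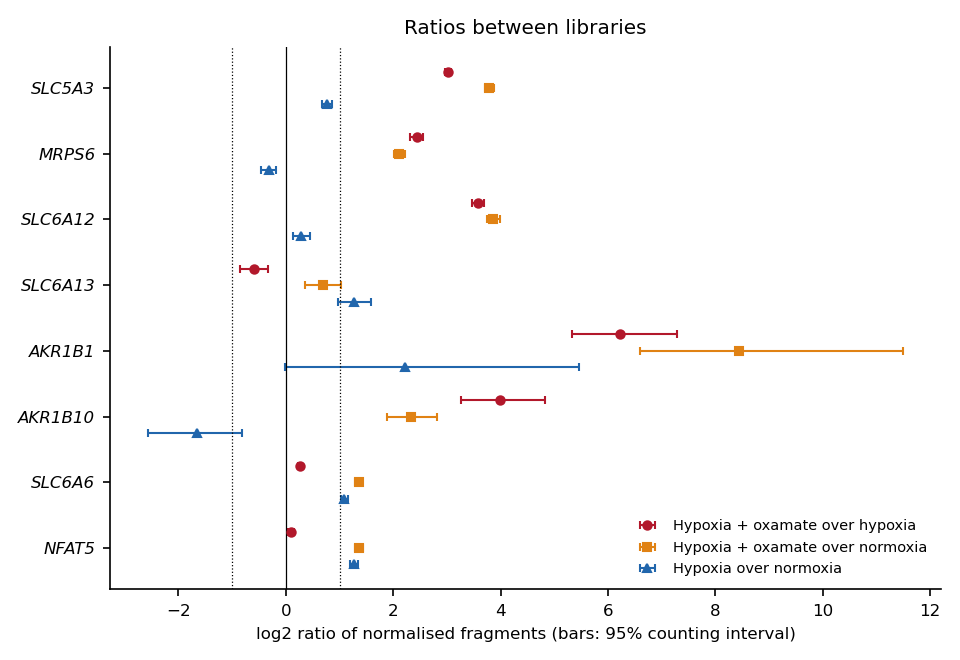
Log2 ratio of scaled fragments for 8 of the genes in the 3 comparisons, with exact 95% intervals that cover counting error only; dotted lines mark 2-fold. AKR1B1 has the highest ratio of oxamate over hypoxia, 74.8-fold, with a wide interval, whereas NFAT5 at 1.07-fold and SLC6A6 at 1.20-fold lie beside the line at 0. AKR1B15 is left out.

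The order of levels per length changed between libraries. With oxamate it was SLC5A3, SLC6A12, SLC6A6, MRPS6, NFAT5, AKR1B1, AKR1B10, SLC6A13 and AKR1B15. In hypoxia SLC6A6 and NFAT5 came first, followed by SLC5A3, MRPS6 and SLC6A12. In normoxia SLC6A6 came first at 16.1 FPKM, MRPS6 followed at 7.69 FPKM, and NFAT5 and SLC5A3 were next to each other at 4.85 and 4.79 FPKM. These orders describe the libraries: without replicates the spread is unknown, and neighbours with close values, such as SLC5A3 and SLC6A12 with oxamate, cannot be ranked for the conditions.

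Against normoxia, 7 of the 9 genes were called higher in hypoxia with oxamate and 0 lower. Over all 13597 genes measured there, 15.4% were called higher and 15.3% lower. SLC6A13, 1.61-fold higher (1.29 to 2.03), was the only measured gene of the set left uncalled. AKR1B1 and AKR1B10, with 2 and 47 fragments in normoxia, again passed the minimum of 50 only through the oxamate library and could not be called lower. The call of NFAT5 was lost when a trend of the ratios on gene length was removed (log2 ratio 0.99).

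In hypoxia over normoxia, 3 of the 9 genes were called higher and 0 lower, against 10.8% and 8.07% of all 13554 genes measured. This comparison holds no oxamate library but shares the hypoxia library with the ratio the set was chosen on. The 3 genes were SLC6A13, NFAT5 and SLC6A6, none of which was called with oxamate over hypoxia. A low hypoxia value raises that ratio and lowers this one, so nothing is read from the lack of overlap. AKR1B1, AKR1B10 and AKR1B15 had too few fragments to be measured. Removing the trend on gene length took away the calls of SLC6A6 (log2 ratio 0.96) and NFAT5 (0.93). The call of SLC6A13 was lost with 1 FPKM added to the deposited values (0.82). It was also lost where the whole interval had to lie beyond 2-fold. Scaling by total fragments in place of TMM moved the median log2 ratio of all genes in this comparison to 0.04, against -0.11, and the split of higher and lower calls to 1775 and 751, against 1468 and 1094.

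**Figure D4:**
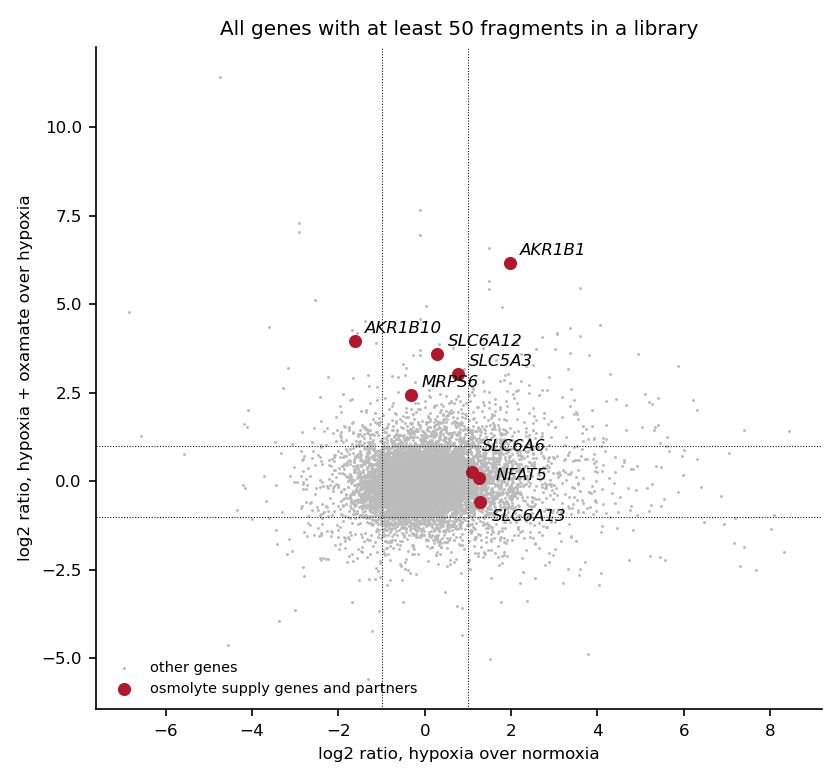
Log2 ratio of hypoxia with oxamate over hypoxia (vertical) against hypoxia over normoxia (horizontal), with a prior of 0.5 fragments; each grey point is a gene with at least 50 fragments in a library, and the axes share the hypoxia library. AKR1B1, AKR1B10, SLC6A12, SLC5A3 and MRPS6 lie above the 2-fold line on the vertical axis, and SLC6A6, NFAT5 and SLC6A13 lie right of it on the horizontal axis, as does AKR1B1, which rests on 10 and 2 fragments there.

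Around these genes, 10 lists of osmolyte biology held 96 other genes, of which 63 were measured in hypoxia with oxamate and hypoxia. Of these, 3 were called higher and 4 lower, with a median log2 ratio of 0.02, against -0.01 over all genes measured. The counts over the lists were thus close to what the shares of all genes, 5.92% and 5.07%, come to. Each list below holds few measured genes, so its counts are not read as a result about the list.

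Among genes for myo-inositol, 1 of 5 other genes was called higher and 0 lower, against 5.92% and 5.07% of all genes measured. Their median log2 ratio was 0.02. SLC2A13 (HMIT), a proton-coupled myo-inositol carrier, had 2247 fragments in hypoxia with oxamate, 621 in hypoxia and 448 in normoxia. It was 4.003-fold higher with oxamate than in hypoxia (3.66 to 4.38). ISYNA1, which makes a myo-inositol phosphate from glucose 6-phosphate, was 1.71-fold lower (1.60 to 1.84). IMPA2, an inositol monophosphatase, was 1.32-fold lower (1.11 to 1.57), and neither gene was called. IMPA1, the other monophosphatase, was 1.26-fold higher (1.16 to 1.37).

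In the polyol list, 0 of 5 other genes were called higher and 2 lower, against 5.92% and 5.07% of all genes measured. The median of the list was -0.82. SORD, sorbitol dehydrogenase, which turns the sorbitol made by AKR1B1 into fructose, had 120 fragments in hypoxia with oxamate, 390 in hypoxia and 1629 in normoxia. Its oxamate level was below that of hypoxia by 2.94-fold (2.39 to 3.64) and below that of normoxia by 13.1-fold (10.9 to 15.9). Its lowest library was thus the one in which AKR1B1 was highest. Of the stretches of 100 bases in SORD transcripts, 19.2% also occur in the pseudogene SORD2P, so its count is uncertain to that extent. KHK, the fructokinase, had 39 fragments with oxamate, 123 in hypoxia and 319 in normoxia, a level 2.85-fold lower with oxamate than under hypoxia alone (1.97 to 4.20). KHK shares 23.8% of its exon bases with CGREF1 on the other strand, which had 14, 23 and 83 fragments.

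For betaine and choline, 0 of 7 other genes were called higher and 2 lower, with a median of -0.11. ALDH7A1, which oxidises betaine aldehyde to betaine, was 3.31-fold lower with oxamate than without it at 1% oxygen (2.99 to 3.67). PEMT, which methylates phosphatidylethanolamine to phosphatidylcholine, was 2.33-fold lower (2.04 to 2.68) and shares 10% of its exon bases with an antisense gene. CHDH, the choline dehydrogenase that feeds betaine synthesis, was 1.08-fold lower (1.01 to 1.15). Of all genes measured, 5.92% were called higher and 5.07% lower. The 0 of 7 is near the first share, and the 2 of 7 is above the second. With 7 genes, no contrast with the betaine carrier SLC6A12 is read from these counts.

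The taurine list had 0 of 5 other genes called in either direction and a median of 0.29. Of all genes measured, 5.92% were called higher and 5.07% lower. CSAD, which makes hypotaurine, was 1.43-fold lower (1.23 to 1.65), and SLC36A1, a proton-coupled amino acid carrier, was 1.28-fold higher (1.16 to 1.42). Among genes of glycerophosphocholine, a further renal osmolyte, 0 of 5 were called, with a median of 0.61. PNPLA6, which forms it from phosphatidylcholine, was 1.77-fold higher (1.69 to 1.84), and GDPD5, which breaks it down and is known to be lowered by salt in mouse renal cells, was 1.55-fold higher (1.33 to 1.79). GPCPD1, which also breaks it down, was 1.41-fold lower (1.10 to 1.80), and GDE1 was 1.10-fold lower (1.03 to 1.18).

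Of the other SLC6 carriers, 0 of 2 measured were called, against 5.92% higher and 5.07% lower of all genes measured. Their median was 0.02. SLC6A8, the creatine carrier, was 1.54-fold lower with oxamate than without it at 1% oxygen (1.505 to 1.59) but 9.11-fold higher in hypoxia than in normoxia (8.65 to 9.60). SLC6A11, a GABA carrier, was 1.59-fold higher with oxamate than in hypoxia (1.48 to 1.72). The volume-regulated anion channel, through which swollen cells release osmolytes, had 0 of 3 measured subunits called and a median of 0.14. Its obligatory subunit LRRC8A was 1.18-fold higher (1.12 to 1.25) and LRRC8B was 1.68-fold lower (1.496 to 1.90).

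Of 10 measured genes otherwise known to rise in hypertonic medium, 2 were called higher and 0 lower, with a median of 0.37. Over all genes measured, 5.92% were called higher and 5.07% lower, with a median of -0.01. With 10 genes, no result about the list is read from these counts. SLC12A2 (NKCC1), which brings salt into shrunken cells, had 13896 fragments in hypoxia with oxamate, 6503 in hypoxia and 3441 in normoxia. It was 2.36-fold higher with oxamate than in hypoxia (2.30 to 2.43). HSPH1, a chaperone, was 2.16-fold higher (2.09 to 2.24). SLC38A2, a carrier of neutral amino acids, was 1.94-fold higher (1.92 to 1.97), just under the limit. HSPA4L, a chaperone whose mouse form is known for its rise in osmotic stress, was lower, with 599 fragments in hypoxia with oxamate and 994 in hypoxia (interval of the fold 1.35 to 1.66), and HSPA1B was 1.27-fold lower (0.85 to 1.90).

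The regulators and partners of NFAT5 had 0 of 12 measured genes called and a median of -0.26. Of all genes measured, 5.92% were called higher and 5.07% lower. PARP1, which is known to bind NFAT5, was 1.60-fold lower (1.54 to 1.66), and ATM, a kinase that acts on it, was 1.07-fold higher (1.02 to 1.12). The NFAT and REL relatives of NFAT5 had 0 of 9 called and a median of 0.17. NFATC4 was 1.85-fold lower (1.54 to 2.24) and NFKB2 was 1.49-fold higher (1.39 to 1.59).

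**Figure D5:**
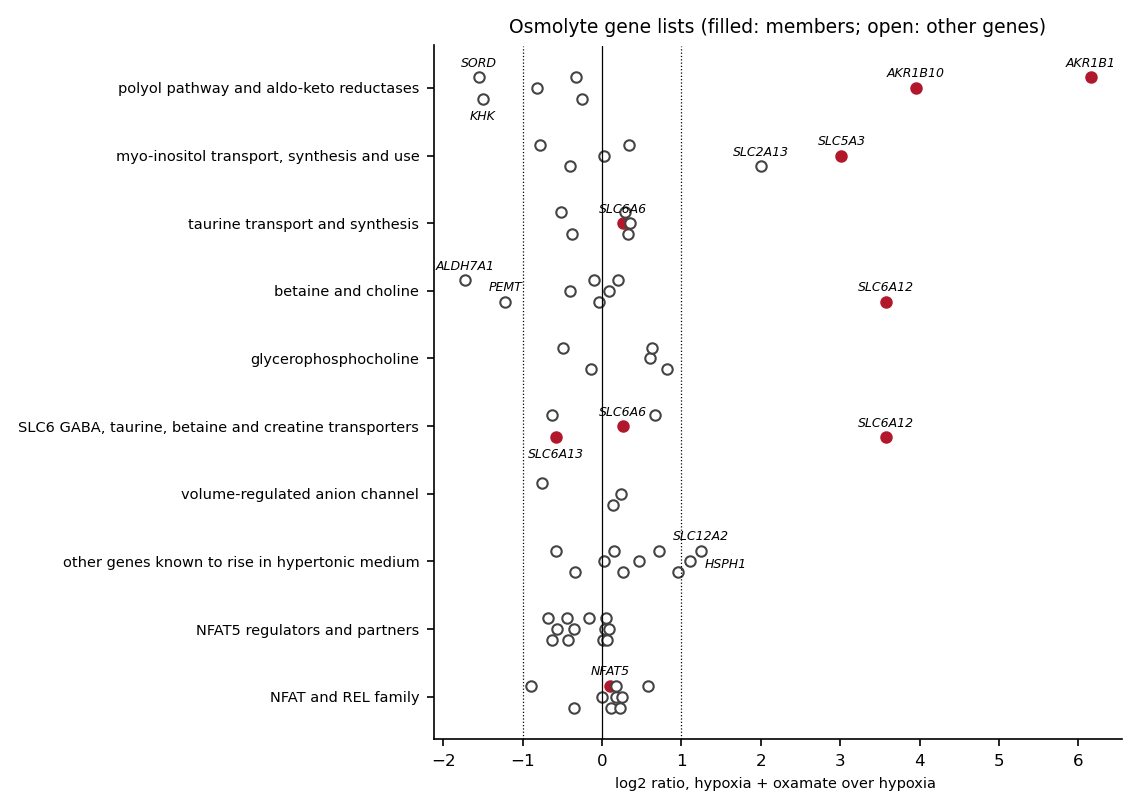
Log2 ratio of hypoxia with oxamate over hypoxia for each measured gene of 10 osmolyte lists; filled points are the described genes, open points the other genes, and dotted lines mark 2-fold. Genes in several lists appear in each. The carriers SLC5A3, SLC6A12 and SLC2A13 and the reductases AKR1B1 and AKR1B10 lie far right, with SORD, KHK, ALDH7A1 and PEMT left of the lower line.

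Over the same lists, 10 of 65 other genes measured were called higher and 15 lower in hypoxia with oxamate than in normoxia, against 15.4% and 15.3% of all genes measured, with a median of -0.20, against -0.11 over all genes. SLC38A2 was 4.58-fold higher (4.50 to 4.65), SLC2A13 5.19-fold higher (4.68 to 5.75) and SLC12A2 4.18-fold higher (4.02 to 4.34). SARDH, which demethylates sarcosine in the breakdown of choline and betaine, was 12.6-fold lower (8.43 to 19.5), and ALDH7A1 was 5.67-fold lower (5.14 to 6.26). In hypoxia over normoxia, 6 of 65 were called higher and 9 lower, against 10.8% and 8.07% of all genes measured, with a median of -0.14, against -0.11 over all genes. That split was 9 higher and 6 lower when libraries were scaled by total fragments. SORD was already 4.47-fold lower in hypoxia than in normoxia (3.999 to 5.004).

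The genes whose pair of log2 ratios lay nearest to those of SLC5A3, among 11218 protein-coding genes over the 3 libraries, were RUNX1, CLTRN, BMP6, DHRS12 and PAQR5. RUNX1, a transcription factor of blood formation, was at a distance of 0.21 and had 582 fragments in hypoxia with oxamate, 71 in hypoxia and 35 in normoxia. For SLC6A12 they were FHIP1A, PLCXD3, SLC5A3, RUNX1 and SOX5, with FHIP1A at a distance of 0.30. SLC5A3 lay at 0.74 from SLC6A12, but both were chosen for one of the ratios behind this distance, so nothing is read from it. For AKR1B1 the nearest genes, RANBP3L, TMEM156, PTX3, EDNRB and NDNF, were farther off, from 1.78 to 2.61, and its own position rests on 10 and 2 fragments in hypoxia and normoxia.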

How the data were processed

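The deposited tables gave 1 FPKM value per gene and library, made by the authors with HISAT2 2.0.5, StringTie 1.3.3b, featureCounts 1.5.0-p3 and edgeR 3.22.5 on hg38 among the tools and build that the submitters' processing notes name, with no role or order. FPKM times the deposited gene length was a whole multiple of 1 constant per library for 100% of values above 0 (tolerance 0.01). These whole numbers were used as fragments. The design had assumed deposited counts.

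Genes with at least 10 fragments in all (21987) were scaled by TMM, trimming 30% of log ratios and 5% of levels, with scipy 1.17.1, numpy 2.4.6, statsmodels 0.14.6 and pandas 2.3.3 under Python 3.11.15; figures used matplotlib 3.10.9. The factors were 1.01 for hypoxia with oxamate, 1.05 for hypoxia and 0.943 for normoxia. List medians use a prior of 0.5 fragments and genes with at least 50 fragments in either library. Because PCR copies of a molecule are not independent, the intervals and the floor of 3 fragments cover counting error only. Exons came from GENCODE 29, which matched 58356 of 61533 identifiers, and promoter windows from RefSeq.

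The genes and lists were chosen with earlier results of these data known. Named genes were all 9 of the set, the 2 highest, 2 lowest and any called genes of each list per comparison (a selection is printed), the 5 nearest patterns, and overlapping genes. Alternatives covered scaling, unit, filters, size rules, trends on gene length and GC content, and summed gene pairs.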

Additional observations from a re-analysis of the deposited data

How the results depend on the processing

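The number of the 9 genes called with oxamate over hypoxia stayed at 5 under every alternative run except a 1.5-fold limit, where SLC6A13 became a 6th as lower. Among the genes of the set, no direction was reversed in any of the comparisons. The split of calls in the lists did change side under some alternatives, as given below. In hypoxia over normoxia, 3 of the 9 genes were called. A minimum of 10 fragments gave 5, which added AKR1B1 as higher and AKR1B10 as lower. A 1.5-fold limit gave 4, which added SLC5A3 as higher. Adding 1 FPKM gave 2, as did asking for the whole interval beyond 2-fold, both without SLC6A13. Removing the trend on gene length gave 1, which left SLC6A13. The cause of the last change was not tested. The other genes of the lists gave 7 calls with oxamate over hypoxia, against 21 at 1.5-fold and 13 with a minimum of 10 fragments. That minimum split them into 7 higher and 6 lower, against 3 and 4. With oxamate over normoxia they gave 25 calls, against 38 at 1.5-fold and 36 with a minimum of 10 fragments. The split became 18 and 18, against 10 and 15. In hypoxia over normoxia they gave 15 calls, against 33 at 1.5-fold and 23 with a minimum of 10 fragments. The split there became 13 and 10, against 6 and 9. These limits admit more genes by construction, and the shares of all genes called under them are not given here. Whether the lists differ from all genes under these limits cannot be told from the counts.

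No paired analysis was possible because each condition has 1 library and no library can be left out. A difference between cultures, and one between oxamate and the sodium it brings, cannot be told apart from the groups here. Counts of 10 fragments or fewer limit what can be said of AKR1B1 without oxamate.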

Other observations

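A noncoding gene listed only as ENSG00000273297, which lies 9.82 kb downstream of AKR1B1 on the same strand and was named after its values were seen, had 798 fragments in hypoxia with oxamate, 124 in hypoxia and 34 in normoxia. Its ratio of oxamate over hypoxia was 7.12 (5.89 to 8.67). ENSG00000255671, inside SLC6A12 on the opposite strand and also named after its values were seen, had 64, 12 and 5 fragments in the same libraries, a ratio of 5.90 (3.16 to 12.0). Exonic fragments of SLC6A12 are not shared with it in GENCODE 29, where the only shared exon bases of SLC6A12 are those with SLC6A12-AS1. Not all neighbours were higher. Upstream of SLC6A12, ENSG00000255746 had 18 fragments with oxamate and 51 in hypoxia, 2.56-fold lower (1.47 to 4.66). ENSG00000261799 was 1.17-fold higher (1.02 to 1.34). Neighbours within 60 kb that are not named here had too few fragments to be measured.

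PECAM1, a marker of endothelial cells, had 499 fragments in hypoxia with oxamate, 230 in hypoxia and 33 in normoxia, whereas CDH5, which defines that cell type, had 0, 0 and 2. PDGFRB, a marker of fibroblasts, was lower in hypoxia with oxamate than in hypoxia, by 3.60-fold (2.91 to 4.48).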
